A study of Mus musculus with 20 samples.

Results

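The response to withdrawal of niche factors was compared between colon organoids selected for growth without those factors and control organoids of the same lines. For each culture the response was the level after 48 h in base medium minus the level after 48 h in ENSW medium, and the result was the mean response of 3 selected cultures minus the mean response of 3 control cultures. This used 12 of the 20 arrays of the series, the arrays that the labels assign to lines 1 to 3 of these organoid types. All 12 came from proximal colon crypts of male mice about 40 days old that carried 1 heterozygous Cre-activable BrafV600E allele, grown in Matrigel. Selected organoids had BrafV600E switched on by lentiviral Cre and were then selected to grow in base medium, and were measured in base medium (3 arrays) and in ENSW medium (3 arrays). Empty vector (EV) organoids received the lentiviral backbone without Cre, so that they carried the same allele in its inactive state, and were likewise measured in base medium (3 arrays) and in ENSW medium (3 arrays). Both organoid types therefore carried the allele and a lentiviral vector. The labels do not say whether the lines came from separate mice, so the p-values measure the spread between these lines. The labels name the additions of the full culture medium as conditioned media with Wnt3a, R-spondin and Noggin, and EGF. They do not spell out ENSW, and describe base medium only as lacking stem-cell niche factors.

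Crypts of the colon are kept by a set of signals. Wnt ligands with R-spondin hold stem and progenitor cells in cycle, EGF drives growth through the MAPK cascade, and Noggin blocks bone morphogenetic proteins (BMPs), which otherwise promote differentiation and switch on the Id genes. When these factors are taken away, normal crypt cells leave the cell cycle and mature into absorptive colonocytes and secretory cells. BRAF is a kinase of the MAPK cascade, and its V600E form signals without a growth factor.

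On the 12 arrays 59.6% to 64.0% of spots were well above background and 0 were saturated. A gene was represented by its brightest probe, and 20840 genes were tested, of which 17606 were well above background on at least 2 of 3 arrays in each of the 4 groups (called measured below). A level is the log2 signal of a gene minus the 75th percentile of its array, and a change is a difference of such levels. Both arrays of a culture lay on 1 slide, so a slide effect on level cancels in a change, whereas no slide held both organoid types. On the first principal component of the 12 arrays (57.4% of the variance) the selected arrays lay at 77.9 to 99.9 in either medium, the EV arrays in base medium at -185 to -122 and the EV arrays in ENSW medium at -38.7 to 7.18. On the second (14.1%), both arrays of selected line 1 lay at 57.3 and 60.2, apart from those of selected lines 2 and 3 at -65.9 to -44.7. Epithelial genes were present throughout. Of 15 such genes, 13 or 14 were well above background on each selected array and 14 or 15 on each EV array. Their summed linear level, relative to the 75th percentile, was 450 to 1202 on selected arrays, 1792 to 1831 on EV arrays in base medium and 1195 to 1232 on EV arrays in ENSW medium. Braf itself, whose probe does not tell the alleles apart, changed by -0.17 in selected and 0.34 in EV organoids, a difference of -0.51 ± 0.24 (SE, adjusted p = 0.12).

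Withdrawal moved the transcriptome of selected organoids little, with a median size of change over all genes of 0.138 log2 units in selected and 0.610 in EV organoids. The change differed between the organoid types for 9302 of 20840 genes (44.6% called) by limma at a Benjamini-Hochberg adjusted p under 0.05. The selected change was the higher one for 4253 genes (20.4%) and the lower one for 5049 (24.2%). Of the 4253 genes, 4244 had a negative EV change, and of the 5049 genes, 5043 had a positive EV change. In 97.4% of the called genes the selected change was the smaller of the 2 changes in size, and in 92.3% it was under 0.5 log2 units. The share of all genes that changed over 2-fold was 3.92%, 3.11% and 4.85% in the 3 selected cultures, against 29.8%, 27.3% and 41.6% in the 3 EV cultures. No culture of either type overlapped the other type in this share. For single genes, the 3 selected changes did not overlap the 3 EV changes in 59% of genes, with the selected changes higher in 24.9% and lower in 34.2%. Against 0, the selected change was called for 2 genes (0.0096%), Id1 and Id3, and the EV change for 12602 genes (60.5%), 7330 higher (35.2%) and 5272 lower (25.3%) in base medium. With the line as a replicate block 0 genes were called in selected organoids by limma (1929 at an unadjusted p under 0.05, against 1930 without the block). Those 2 calls became 0 without selected line 1, selected line 3, EV line 2 or EV line 3, and 1 without EV line 1. Without selected line 2 there were 2 calls, of which 1 was among the 2. When the media were treated as unpaired, 5256 genes were called for the difference, and among the genes named by the rule given with the processing the calls of Aqp8, Fcgbp, Ang4, Dusp6, Cck, Ascl2, Myc, Lgr5, Krt20, Slc26a3, Etv1, Etv5, Bmp2, Bmp4, Atoh8, Fam20c, Hr, Lss, Isg15, Ankrd1, Vim, Fn1 and Nts were lost. The unadjusted 95% interval of a selected change reached 0.38 log2 units to either side for the median gene. After adjustment larger selected changes also missed the threshold, such as those of Atoh8 (3.09, adjusted p = 0.223), Hr (2.17, adjusted p = 0.163) and Fam20c (-2.49, adjusted p = 0.35). A selected change that was not called is therefore not shown to be absent.

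The small selected changes were also less correlated between cultures, though their median spread in log2 units was smaller. Across genes, which are not independent replicates, the changes of any pair of selected cultures correlated at r = 0.103 to 0.340, and those of any pair of EV cultures at 0.835 to 0.912. The mean selected and mean EV changes, which share no array, correlated at r = 0.0486. The median SD over the 3 cultures of a type was 0.198 for selected changes and 0.292 for EV changes. Among measured genes, 22 changed over 2-fold in the same direction in all 3 selected cultures, against 3362 in all 3 EV cultures. Over all genes tested these shares were 0.211% (0.0816% higher in base medium) in selected and 19.7% (8.97% higher) in EV cultures.

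**Figure D1:**
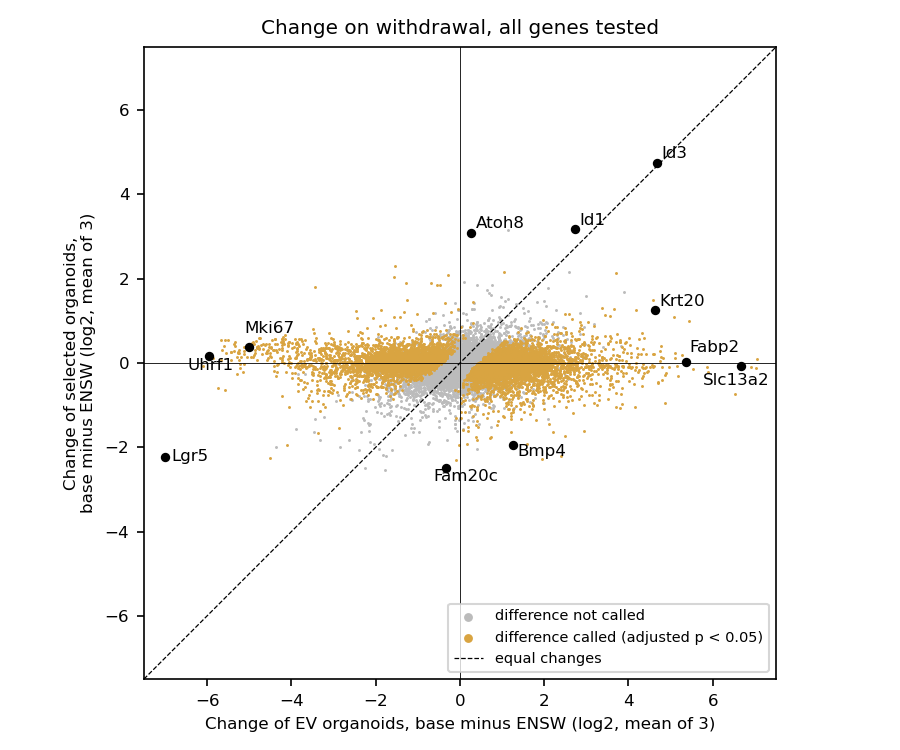
Mean change on withdrawal (base minus ENSW medium, log2, 3 cultures each) in selected organoids (vertical axis) against EV organoids (horizontal axis) for all 20840 genes tested, with genes whose difference was called in yellow and a dashed line at equal changes. Most genes lie along the horizontal axis, Id1 and Id3 lie near the dashed line, and Atoh8, Bmp4 and Fam20c lie away from both.

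Transcripts of cell-cycle genes fell in EV organoids on withdrawal and were not called as changed in selected organoids. All 24 mitosis genes tested and 24 of 25 DNA replication genes had a called higher change in selected organoids, beside 20.4% of all genes. The median change of the mitosis list was 0.41 in selected and -4.38 in EV organoids (median difference 4.84), and that of the replication list was 0.13 in selected and -3.55 in EV organoids (median difference 3.70). Over all genes the medians were 0.00 in selected and 0.18 in EV organoids (median difference -0.18). By culture, the mitosis median was 0.79, 0.20 and 0.33 in selected organoids and -3.28, -4.32 and -5.60 in EV organoids. In these whole-organoid samples, fewer cycling cells and less of these transcripts per cell cannot be told apart.

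Mki67, a marker of cycling cells (probe at chromosome 7, 142884764 to 142884823, minus strand, mm9), had levels of 4.34, 3.65 and 3.81 in selected lines 1 to 3 in base medium, against 3.32, 3.68 and 3.68 in ENSW medium. In EV lines 1 to 3 its levels were 0.71, -0.41 and -2.86 in base medium, against 4.14, 4.51 and 3.83 in ENSW medium. The EV arrays in base medium thus lay below the other 9, which overlapped with each other. The difference of changes was 5.39 ± 0.79 (SE, 3 cultures each, adjusted p = 0.00339). Mcm6, a subunit of the replicative helicase (chromosome 1, 130228178 to 130228237, minus strand), had levels of 4.98, 4.30 and 4.61 in selected organoids in base medium and 4.44, 4.52 and 4.54 in ENSW medium. In EV organoids they were 1.16, 0.71 and -0.97 in base medium and 4.85, 4.83 and 4.91 in ENSW medium, giving a difference of changes of 4.69 ± 0.57 (adjusted p = 0.00213). The ENSW levels of the organoid types differed by -0.36 for Mcm6 (adjusted p = 0.615) and by -0.60 for Mki67 (adjusted p = 0.601), neither of them called.

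The largest higher change among measured genes with a symbol was that of Uhrf1, which brings the maintenance DNA methyltransferase to replicated DNA. It changed by 0.56, -0.26 and 0.23 in selected and by -4.28, -5.68 and -7.90 in EV cultures (difference 6.13 ± 0.86, adjusted p = 0.00297). The methyltransferase gene Dnmt1 changed by 0.15 in selected and -1.85 in EV organoids (2.00 ± 0.18, adjusted p = 0.00127). Of the 15 genes of the DNA methylation list 4 had a higher and 4 a lower change (53.3%, beside 44.6% of all genes). Other leading differences were those of Dtl, which directs destruction of replication licensing factors (6.03 ± 0.85, adjusted p = 0.00302), Mcm5 (5.96 ± 0.89, adjusted p = 0.00351) and Ccnb1, cyclin B1 (5.84 ± 0.92, adjusted p = 0.00403). Among 17 regulators of the E2F switch and of quiescence, 9 had a higher and 4 a lower change (76.5%, beside 44.6% of all genes). The activator E2f1 changed by 0.07 in selected and -3.24 in EV organoids (3.31 ± 0.27, adjusted p = 0.00115). Lower changes were called for the quiescence genes Cdkn1c, a cyclin-dependent kinase inhibitor (-0.20 in selected, 3.18 in EV), Ccng2 (0.65 and 2.66), Rb1 (0.08 and 1.41) and Rbl2 (-0.07 and 1.04).

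Mitosis and replication genes moved together, and their proximal promoters are shown because repression of such genes in resting cells is known to act through short promoter elements. The sequences are the 250 bases before the RefSeq start (GRCm38.p6), 5′ to 3′ on the strand of the gene. Capitals mark matches on either strand to the CHR element (TTTGAA or TTCGAA), the E2F site (in the form TTCCCGC, the form TTGGCGC or the form TTCGCGC) and the CCAAT box, and E2F matches can overlap CCAAT or each other. Ccnb1, Cdk1 and Mki67 are mitosis genes, Mcm5 and Mcm6 are replication genes, and Id3 rose in both organoid types.
Ccnb1, chr13:100786487-100786736, minus strand: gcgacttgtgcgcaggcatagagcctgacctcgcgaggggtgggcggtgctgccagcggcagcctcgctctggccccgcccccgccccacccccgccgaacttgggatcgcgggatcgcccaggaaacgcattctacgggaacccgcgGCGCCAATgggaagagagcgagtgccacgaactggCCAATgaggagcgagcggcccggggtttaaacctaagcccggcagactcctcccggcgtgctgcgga
Cdk1, chr10:69352913-69353162, minus strand: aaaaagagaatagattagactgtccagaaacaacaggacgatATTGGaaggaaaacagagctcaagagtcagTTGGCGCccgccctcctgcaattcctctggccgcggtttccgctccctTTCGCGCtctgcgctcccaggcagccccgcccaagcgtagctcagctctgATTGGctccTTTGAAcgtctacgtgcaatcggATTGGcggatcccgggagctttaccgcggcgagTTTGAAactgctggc
Mki67, chr7:135716380-135716629, minus strand: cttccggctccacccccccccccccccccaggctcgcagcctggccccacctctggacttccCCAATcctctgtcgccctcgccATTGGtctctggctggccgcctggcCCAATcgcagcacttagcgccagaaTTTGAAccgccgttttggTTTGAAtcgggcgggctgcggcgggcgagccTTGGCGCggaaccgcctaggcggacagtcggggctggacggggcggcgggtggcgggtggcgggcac
Mcm5, chr8:75109259-75109508, plus strand: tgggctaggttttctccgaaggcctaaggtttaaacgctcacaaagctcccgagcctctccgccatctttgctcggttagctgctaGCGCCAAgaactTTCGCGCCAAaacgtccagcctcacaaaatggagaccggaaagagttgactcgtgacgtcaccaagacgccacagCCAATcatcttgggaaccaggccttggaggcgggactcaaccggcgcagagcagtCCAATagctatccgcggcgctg
Mcm6, chr1:128359706-128359955, minus strand: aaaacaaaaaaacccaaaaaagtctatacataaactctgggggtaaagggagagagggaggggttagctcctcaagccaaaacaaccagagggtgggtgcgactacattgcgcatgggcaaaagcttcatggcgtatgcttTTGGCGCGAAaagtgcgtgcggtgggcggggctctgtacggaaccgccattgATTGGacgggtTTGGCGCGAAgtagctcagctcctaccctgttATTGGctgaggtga
Id3, chr4:136143572-136143821, plus strand: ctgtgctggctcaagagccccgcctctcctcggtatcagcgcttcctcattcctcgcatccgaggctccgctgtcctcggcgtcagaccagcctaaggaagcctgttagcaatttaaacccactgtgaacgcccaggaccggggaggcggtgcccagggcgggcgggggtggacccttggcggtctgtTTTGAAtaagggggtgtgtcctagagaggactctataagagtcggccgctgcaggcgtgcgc

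RefSeq promoters were matched for 40 genes of the mitosis and replication lists. A CHR element was present in 8 of 20 mitosis promoters (40%) and 5 of 20 replication promoters (25%), against 17.4% of all 27025 promoters. An E2F site was present in 3 of 20 (15%) and 7 of 20 (35%), against 6.79%. A CCAAT box was present in 18 of 20 (90%) and 12 of 20 (60%), against 34.5%. The TCF motif (CTTTGAT or CTTTGAA, of which CTTTGAA contains TTTGAA) was present in 3 of 20 (15%) and 1 of 20 (5%), against 7.67%. Cdk1 and Mki67 each held 2 CHR elements, and Mcm5 and Mcm6 held 3 and 4 E2F matches. Of 9 BMP list promoters matched 3 held a CHR element (33.3%), 4 a CCAAT box (44.4%), 0 an E2F site and 0 the TCF motif. In the Id3 window there was 1 CHR match and neither of the other marked motifs. These matches describe the letters in the window, and binding was not measured.

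Growth genes moved in the same direction as cell-cycle genes. All 20 ribosome biogenesis genes had a called higher change, beside 20.4% of all genes, with a median of -0.03 in selected and -2.38 in EV organoids. Npm1, a nucleolar protein of ribosome assembly, had levels of 5.97, 5.93 and 5.48 in selected organoids in base medium, against 5.88, 6.07 and 5.46 in ENSW medium. In EV organoids its levels were 3.40, 3.71 and 2.96 in base medium, against 5.17, 5.61 and 5.50 in ENSW medium (difference of changes 2.06 ± 0.24, adjusted p = 0.00187). Base-medium levels of EV organoids were the lowest of the 4 groups in all 3 lines. The amino acid and endoplasmic reticulum stress list split, with 8 of 20 genes higher and 6 lower (70%, beside 44.6% of all genes). Those higher included enzymes of serine and one-carbon metabolism, namely Psat1 (0.09 in selected, -4.07 in EV, difference 4.16 ± 0.43, adjusted p = 0.00148), Phgdh (3.70 ± 0.37, adjusted p = 0.00148) and Mthfd2 (2.98 ± 0.30, adjusted p = 0.00147). Among those lower were the stress factors Atf3 (-0.25 in selected, 2.35 in EV) and Ddit3 (-0.14 and 1.47). The 6 lower calls became 3 without selected line 1, selected line 3 or EV line 3, and 1 with the media unpaired.

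Colonocyte genes moved the other way. Tested against no change, 0 of 19 were called in selected organoids and 18 were called higher in EV organoids. Of 19 colonocyte genes tested 14 had a called lower change and 0 a higher one, beside 24.2% of all genes called lower. With the media unpaired 6 were called lower. The list median was 0.13 in selected and 2.77 in EV organoids. Fabp2, an intestinal fatty acid binding protein (chromosome 3, 122602276 to 122602335, plus strand, mm9), had levels of -2.21, -1.16 and -2.25 in selected organoids in base medium and -1.79, -1.08 and -2.80 in ENSW medium. In EV organoids its levels were 7.84, 6.53 and 8.90 in base medium and 3.48, 0.08 and 3.65 in ENSW medium. Every selected array lay below every EV array, and the difference of changes was -5.34 ± 0.54 (adjusted p = 0.00147). The water channel gene Aqp8 differed by -4.20 ± 0.34 (adjusted p = 0.00115). Slc13a2, a citrate transporter of the list, changed by 6.66 in EV organoids, and 2 of 3 selected arrays in base medium and 1 of 3 in ENSW medium were well above background for it. The chloride exchanger gene Slc26a3 was not well above background on any of the 6 selected arrays, and its EV change was 3.74.

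Selected lines differed among themselves for some colonocyte genes. Krt20, a keratin of surface cells, changed by 0.26, 1.01 and 2.49 in selected and by 4.12, 5.80 and 3.96 in EV cultures. The groups did not overlap (difference -3.37 ± 0.70, adjusted p = 0.00978), and the selected mean of 1.25 missed the threshold against 0 (adjusted p = 0.52). Car1, a carbonic anhydrase, changed by 4.21, -0.40 and 2.64 in selected and by 1.90, 4.09 and 1.75 in EV cultures, so the groups overlapped and the difference was not called (-0.43, 95% interval -3.37 to 2.51). Clca4a, a chloride channel regulator gene outside the list that was picked after its values were seen, changed by 1.23, 2.75 and 2.45 in selected and by 3.03, 4.07 and 4.04 in EV cultures. The groups did not overlap (difference -1.57, adjusted p = 0.0348), and the selected change was over 2-fold in all 3 cultures without being called against 0.

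Secretory lineages were less uniform. Of 15 enteroendocrine genes 8 had a lower and 1 a higher change (60%, beside 44.6% of all genes). The lower ones included the peptide hormone genes Pyy (-0.05 in selected, 3.39 in EV) and Cck (-0.00 and 1.15), and the higher one was Neurog3, the factor that starts endocrine fate (0.01 and -4.05, difference 4.06 ± 0.84, adjusted p = 0.00965). The Neurog3 level was 4.06 lower in selected than in EV organoids in ENSW medium (adjusted p = 0.00652) and differed by 0.01 in base medium (adjusted p = 0.995). The 8 lower calls became 5 without EV line 3 and 0 with the media unpaired. Over the 5 enteroendocrine genes measured in all 4 groups there were 3 lower calls and 1 higher call. Of 14 goblet genes 6 had a lower and 1 a higher change (50%, beside 44.6% of all genes). Among the lower ones were the mucus proteins Clca1 (-3.38 ± 0.35, adjusted p = 0.00148) and Fcgbp (-3.29 ± 0.52, adjusted p = 0.00396). For the mucin gene Muc2, whose difference missed the threshold (adjusted p = 0.0888), 1 of 3 selected arrays was well above background in each medium. The 1 goblet gene with a higher change was Ang4, an angiogenin (-0.29 in selected, -2.28 in EV, difference 1.99 ± 0.56, adjusted p = 0.029). This call was lost without selected line 1 (adjusted p = 0.0779), selected line 2 (0.0889) or EV line 1 (0.0562), and the list had 4 higher calls without EV line 2. The goblet list had a median difference of -0.63, which lay between -1.17 (without EV line 3) and -0.02 (without EV line 2) when 1 culture was left out. It became 1.21 (1 higher, 2 lower) over the 7 goblet genes measured in all 4 groups. Of 10 tuft cell genes 1 had a lower change (10%, beside 44.6% of all genes called in either direction). This count was 4 with the line as a replicate block, 6 without EV line 2 and 0 without selected line 2, EV line 1 or EV line 3.

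**Figure D2:**
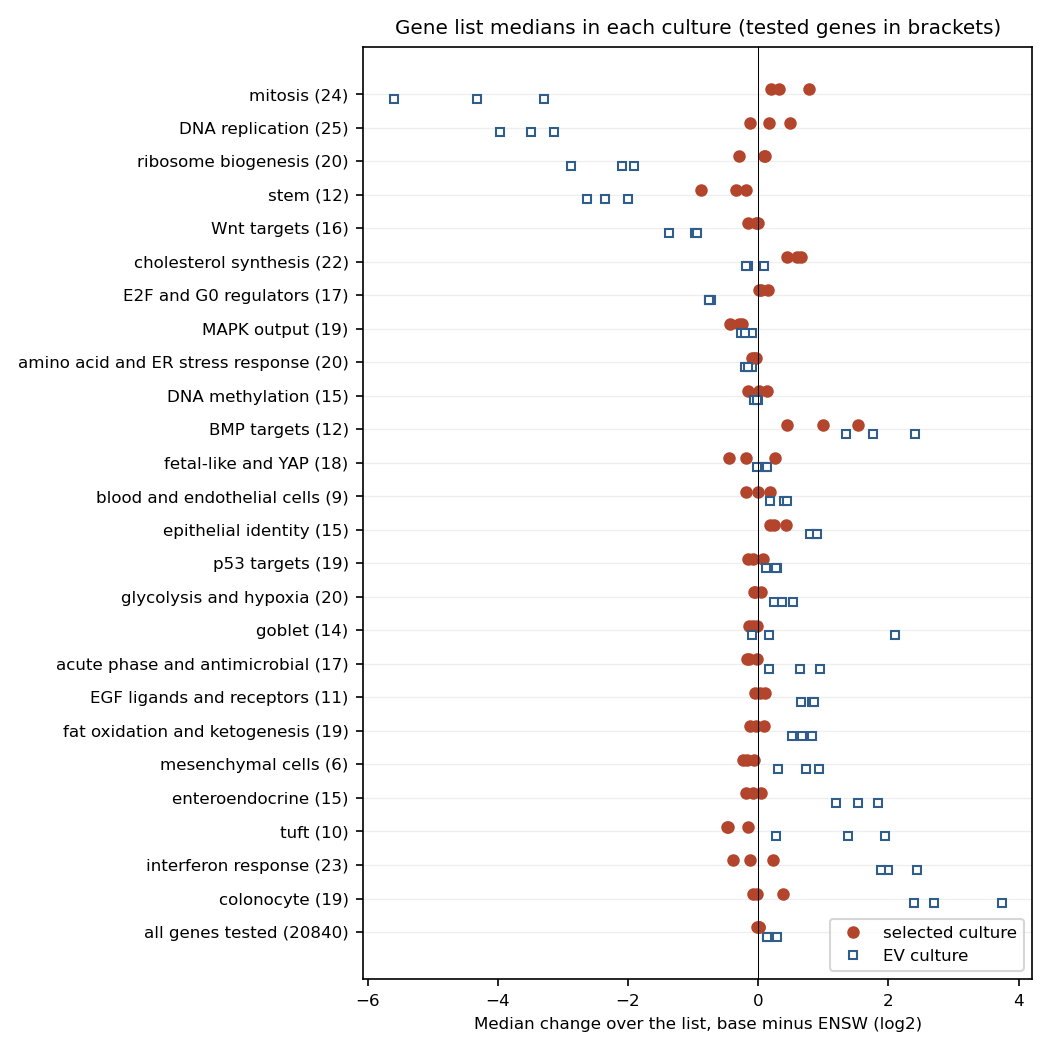
Median change on withdrawal (base minus ENSW medium, log2, horizontal axis) over the tested genes of each list in the 3 selected cultures (filled circles) and the 3 EV cultures (open squares), with lists ordered by median difference and all genes tested at the bottom. Mitosis medians lie at 0.20 to 0.79 in selected and -5.60 to -3.28 in EV cultures, and colonocyte medians at -0.07 to 0.38 in selected and 2.39 to 3.74 in EV cultures.

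Against 0, 8 of 12 stem cell genes fell and 2 rose in EV organoids, and 9 of 16 Wnt targets fell and 4 rose, beside 25.3% of all genes called lower and 35.2% called higher. None of either list was called in selected organoids. Of the 12 stem genes 6 had a higher and 2 a lower change (median -0.50 in selected, -2.53 in EV). Of the 16 Wnt targets 8 had a higher and 3 a lower change (median -0.14 in selected, -0.999 in EV). These calls made up 66.7% of stem genes and 68.75% of Wnt targets, beside 44.6% of all genes. With the media unpaired over 12 arrays each list had 1 higher and 1 lower call. The median difference of the Wnt list was 0.83, against 0.04 with normexp background correction. The 3 lower Wnt calls became 1 without EV line 1 or EV line 3. Lower changes were called for the Wnt target Tdgf1 (-0.37 in selected, 1.19 in EV, difference -1.56 ± 0.25, adjusted p = 0.0041). The same held for the stem list gene Prom1 (-0.45 and 1.31, difference -1.76 ± 0.32, adjusted p = 0.00592), whose call was lost with the media unpaired. Cd44, a surface receptor and Wnt target, had levels of 2.51, 3.58 and 3.62 in selected organoids in base medium and 2.12, 3.03 and 3.34 in ENSW medium. In EV organoids its levels were -0.07, -0.63 and -1.43 in base medium and 1.25, 1.85 and 0.80 in ENSW medium (difference of changes 2.42 ± 0.31, adjusted p = 0.00247). Its changes had opposite signs in the organoid types in every culture. Myc changed by -0.24, -0.71 and -1.01 in selected and by -1.59, -2.03 and -2.77 in EV cultures (1.48 ± 0.35, adjusted p = 0.0151). Sox9, a progenitor factor, changed by 0.25 in selected and -2.76 in EV organoids (3.01 ± 0.51, adjusted p = 0.00488), and Ascl2, a stem cell factor, by -0.25 and -5.30 (5.04 ± 0.90, adjusted p = 0.00585). The Ascl2 levels split the selected lines, with 4.37, -5.51 and -4.87 in base medium and 3.23, -4.67 and -3.80 in ENSW medium. In EV organoids they were -2.52, -5.92 and -4.55 in base medium and 1.08, -0.27 and 2.09 in ENSW medium. Selected lines 2 and 3 thus lay within the range of EV base levels in both media, and the base levels of the organoid types did not differ by a called amount (adjusted p = 0.501).

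Lgr5, the R-spondin receptor that marks crypt stem cells, varied between selected lines. Its level was 0.67, -7.71 and -7.44 in selected lines 1 to 3 in base medium and 1.56, -7.63 and -1.70 in ENSW medium. In EV organoids it was -6.08, -7.70 and -7.59 in base medium, where 0 of 3 arrays were well above background, and 0.79, -1.95 and 0.76 in ENSW medium. It was therefore at least 39.3-fold lower in base medium in EV organoids, taking the higher of the probe's own signal and the lowest signal well above background on each dim array as the bound. Only selected line 1 kept the transcript in base medium. The difference of changes was called (adjusted p = 0.0425) with probes below background entering at their own signal, and at the bound the EV change was -5.30. The call was lost without selected line 1 (adjusted p = 0.121), selected line 2 (0.116), EV line 1 (0.094), EV line 2 (0.0507) or EV line 3 (0.136). It was also lost with quantile normalization (adjusted p = 0.0526), without a filter (0.0591), with the changes of 9 cultures (0.0795) and with robust shrinkage (0.158).

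Genes of the MAPK pathway and of EGF signalling moved in both directions. Of 19 MAPK output genes 4 had a higher and 4 a lower change (42.1%, beside 44.6% of all genes). The PEA3 factors of this list went opposite ways. Etv4 had levels of 2.89, 2.53 and 2.90 in selected organoids in base medium and 3.18, 2.78 and 3.25 in ENSW medium, and of -0.43, -1.42 and -0.81 in EV organoids in base medium and 1.44, 0.94 and 1.65 in ENSW medium. The difference of changes was 1.93 ± 0.19 (adjusted p = 0.00147) for Etv4 and 1.75 ± 0.29 (adjusted p = 0.00445) for Etv5. Etv1, in contrast, changed by -0.69 in selected and 1.35 in EV organoids (-2.05 ± 0.28, adjusted p = 0.00274). Genes that restrain the pathway were also mixed. Spry1, Spry2, Spred1 and Spred2 were not called, with changes of -0.63 to 0.03 in selected and -0.23 to 0.19 in EV organoids. The dual-specificity phosphatases Dusp4 (-0.52 in selected, 0.49 in EV), Dusp5 (-0.50 and 1.83) and Dusp6 (-0.12 and 0.63) were the other 3 lower calls. The Dusp6 call (difference -0.75 ± 0.24, adjusted p = 0.0411) was lost with the line as a replicate block (adjusted p = 0.0504) and without selected line 1 (0.109), selected line 3 (0.0996), EV line 1 (0.105) or EV line 2 (0.0931). With the media unpaired over 12 arrays 0 of the list had a lower and 1 a higher call.

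Among 11 ligands and receptors of the EGF family and their regulators, 6 had a lower and 2 a higher change (72.7%, beside 44.6% of all genes). The receptors Erbb3 (-0.12 in selected, 1.86 in EV, difference -1.98 ± 0.32, adjusted p = 0.00418) and Erbb2 (-1.30 ± 0.19, adjusted p = 0.00331) and the ligand Tgfa (-1.16 ± 0.16, adjusted p = 0.00305) rose in EV organoids and had selected changes of -0.12, 0.05 and -0.14. Of 19 p53 targets and cell-cycle inhibitors 6 had a lower and 4 a higher change (52.6%, beside 44.6% of all genes). Cdkn1a, the inhibitor p21, had levels of 1.08, 1.06 and 1.23 in selected organoids in base medium and 1.36, 1.19 and 1.52 in ENSW medium. In EV organoids they were 3.47, 2.04 and 4.33 in base medium and 0.87, 0.12 and 1.46 in ENSW medium (difference of changes -2.70 ± 0.26, adjusted p = 0.00139). Cdkn2b, the inhibitor p15, differed by -2.19 ± 0.17 (adjusted p = 0.00115), and the p53 target Eda2r went the other way (-0.04 in selected, -1.54 in EV, difference 1.50 ± 0.19, adjusted p = 0.00234).

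**Figure D3:**
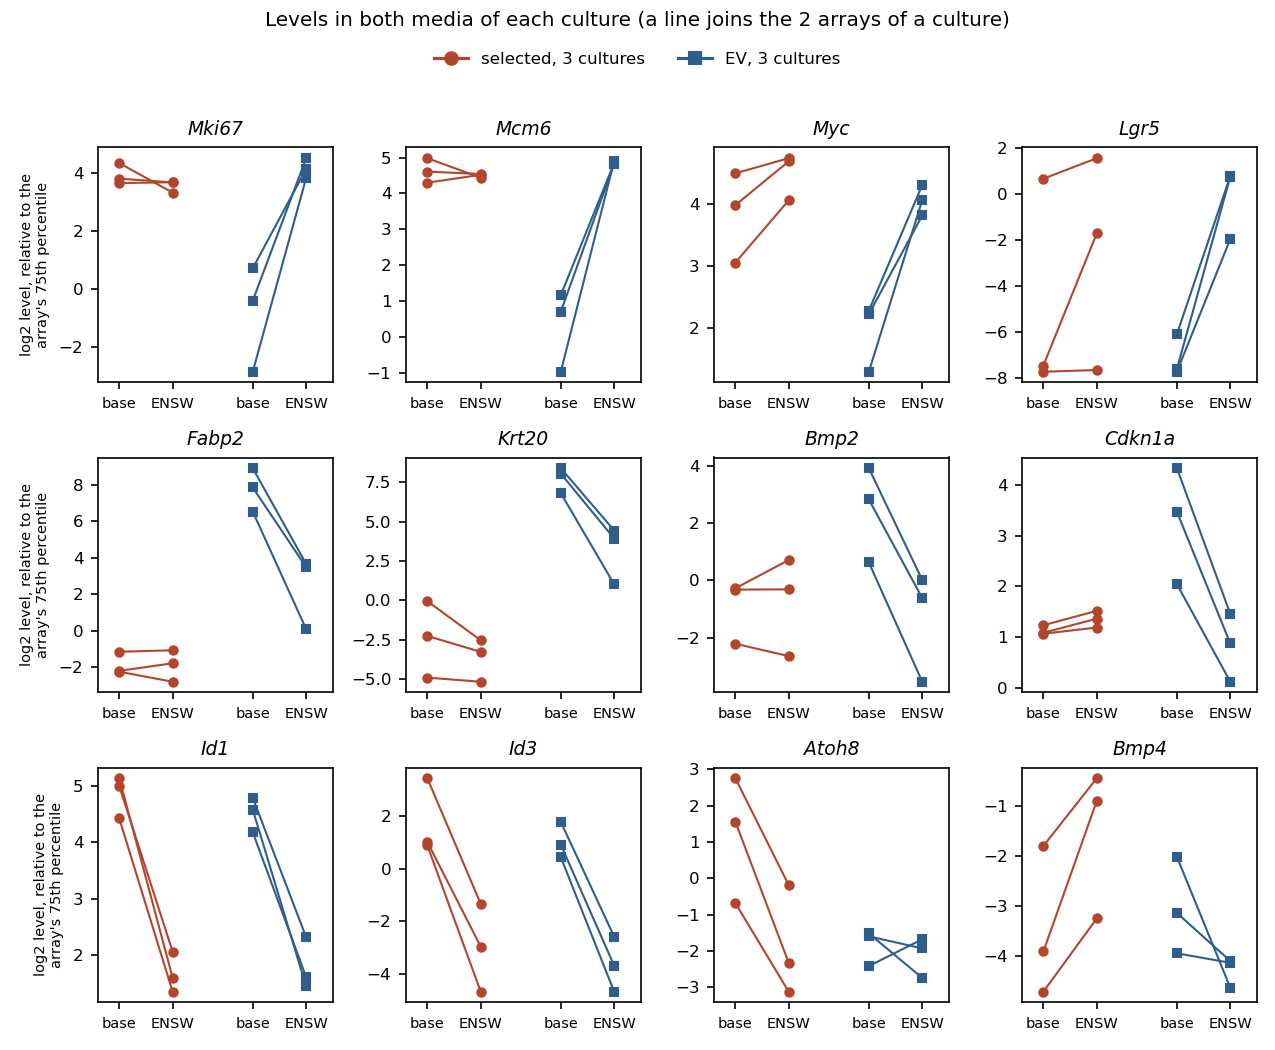
Levels of 12 genes (log2, 75th percentile subtracted, vertical axes, each on its own scale) in base and ENSW medium, with the 3 selected cultures on the left and the 3 EV cultures on the right of each panel and a line joining both media of a culture. Lines of selected cultures run nearly flat for Mki67 and Mcm6, whereas for Id1 and Id3 the lines of both organoid types run steeply.

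The BMP targets Id1 and Id3 rose in both organoid types. These genes, which encode inhibitors of helix-loop-helix factors, were the 2 called in the same direction against 0 in selected and in EV organoids. Id1 (chromosome 2, 152563083 to 152563142, plus strand, mm9) had levels of 5.00, 4.43 and 5.14 in selected organoids in base medium and 2.06, 1.35 and 1.60 in ENSW medium, and of 4.58, 4.18 and 4.79 in EV organoids in base medium and 1.45, 1.61 and 2.32 in ENSW medium. Its change was 3.19 ± 0.18 in selected (adjusted p = 0.0185) and 2.73 ± 0.18 in EV organoids (adjusted p = 0.000181). Id3 (chromosome 4, 135700075 to 135700249, plus strand) changed by 4.76, 3.97 and 5.54 in selected and by 4.59, 5.10 and 4.35 in EV cultures. The base and ENSW arrays of both types did not overlap for either gene. The difference of changes was 0.46 (95% interval -0.15 to 1.07, adjusted p = 0.183) for Id1 and 0.08 (95% interval -0.92 to 1.08, adjusted p = 0.891) for Id3. These intervals still allow a difference of about 1 log2 unit. Both calls in selected organoids were lost with the line as a replicate block. The sign of the Id3 difference, which was not called, turned without selected line 3 (-0.31) or EV line 3 (-0.08).

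The other BMP genes ranged from shared to opposite. Of 12 members tested 1 had a higher and 3 a lower change (33.3%, beside 44.6% of all genes). The median change was 1.10 in selected and 1.65 in EV organoids. Id2 (1.35 in selected, 2.04 in EV) and the inhibitory Smad6 (1.26 and 2.28) had positive changes in every culture of both types, with differences that missed the threshold (adjusted p = 0.135 and 0.0784). Smad7, another feedback inhibitor, changed by 0.93 in selected and 2.19 in EV organoids, and this difference was called (-1.26 ± 0.36, adjusted p = 0.0302). The ligand genes differed most. Bmp2 changed by -0.99, -0.01 and 0.43 in selected and by 3.44, 4.16 and 3.90 in EV cultures (-4.02 ± 0.39, adjusted p = 0.0014).

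Bmp4 (chromosome 14, 47003391 to 47003450, minus strand, mm9) had levels of -1.80, -4.73 and -3.92 in selected organoids in base medium and -0.44, -3.25 and -0.90 in ENSW medium. In EV organoids its levels were -3.96, -3.14 and -2.02 in base medium and -4.15, -4.11 and -4.65 in ENSW medium. It was lower in base medium in 3 of 3 selected cultures and higher in 3 of 3 EV cultures (difference of changes -3.21 ± 0.72, adjusted p = 0.0124). Atoh8, a helix-loop-helix factor known as a BMP target (chromosome 6, 72156816 to 72156875, minus strand), was the reverse case. Its levels were 2.76, -0.68 and 1.56 in selected organoids in base medium and -0.19, -3.12 and -2.33 in ENSW medium, and -1.60, -1.52 and -2.42 in EV organoids in base medium and -1.93, -2.74 and -1.68 in ENSW medium. The 3 selected changes of 2.94, 2.44 and 3.89 lay above the EV changes of 0.33, 1.23 and -0.74 (difference 2.82 ± 0.57, adjusted p = 0.00892).

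**Figure D4:**
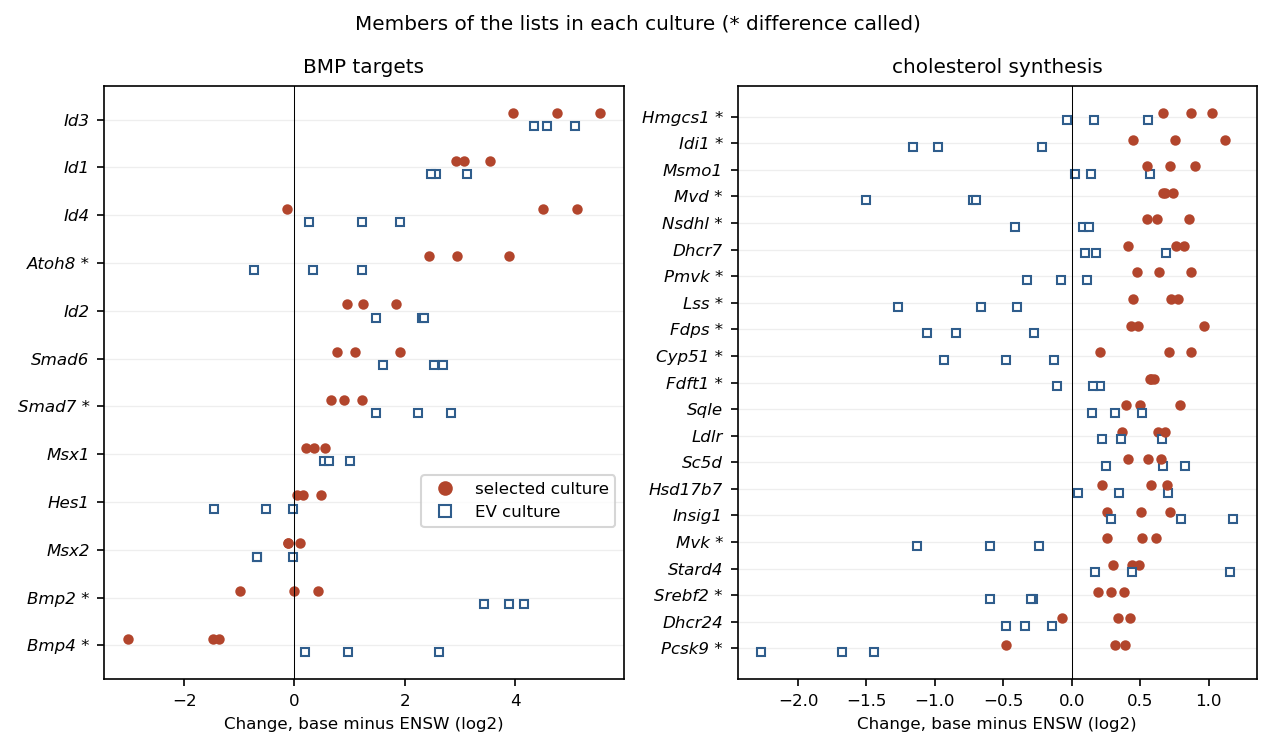
Change on withdrawal (base minus ENSW medium, log2, horizontal axes) of the tested BMP genes (left) and of 21 cholesterol synthesis genes (right) in the 3 selected cultures (filled circles) and the 3 EV cultures (open squares), with an asterisk where the difference was called. Id3 and Id1 lie far to the right in both organoid types, Bmp2 and Bmp4 separate them, and the mean selected changes of the cholesterol genes run between 0.07 and 0.85.

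In 241 of the 9302 called genes the selected change was the larger in size. Fam20c, the kinase of secreted proteins, changed by -4.10, -1.60 and -1.78 in selected and by -0.13, -0.31 and -0.55 in EV cultures (difference -2.16 ± 0.65, adjusted p = 0.036). The call was lost without EV line 1 (adjusted p = 0.0945), EV line 2 (0.0723) or EV line 3 (0.0845). Hr, a nuclear receptor corepressor, changed by 1.79, 2.31 and 2.41 in selected and by 0.83, 0.61 and 1.71 in EV cultures (1.12 ± 0.33, adjusted p = 0.0325). Its call was lost without selected line 2 (0.0944), selected line 3 (0.098), EV line 1 (0.0942) or EV line 2 (0.0748). Both genes moved the same way in every culture of both types.

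Of the 22 measured genes that changed over 2-fold in all 3 selected cultures, 8 were higher and 14 lower in base medium, and 7 changed over 2-fold in the same direction in all 3 EV cultures. This set was chosen after its values were seen. It held C2cd4b (1.10, 3.02 and 1.28 in selected, -3.21, -3.48 and -3.60 in EV), Sardh, a mitochondrial sarcosine dehydrogenase (-1.62, -1.29 and -2.84 in selected, 1.52, 0.88 and 2.36 in EV), and Mmp7, a matrix protease (-1.53, -1.73 and -2.59 in selected, -3.39, -4.50 and -4.42 in EV).

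Genes of cholesterol synthesis and BMP genes were the 2 of 25 lists with a selected median change above 0.5. On the negative side, the selected median was -0.523 for the tuft list and -0.501 for the stem list. Of 22 cholesterol genes 13 had a called higher change and 0 a lower one (59.1%, beside 20.4% of all genes called higher). The median was 0.58 in selected and -0.08 in EV organoids. By culture, the median was 0.60, 0.44 and 0.67 in selected and 0.10, -0.16 and -0.19 in EV organoids. The single changes in selected organoids were not called against 0. Mvd, an enzyme of the mevalonate pathway, had levels of 1.86, 2.44 and 2.18 in selected organoids in base medium and 1.19, 1.76 and 1.44 in ENSW medium. In EV organoids its levels were 1.99, 1.66 and 1.29 in base medium and 2.70, 2.37 and 2.80 in ENSW medium. The difference of changes was 1.67 ± 0.25 (adjusted p = 0.00341), and the signs were opposite in every culture. Lss, another enzyme of the pathway, changed by 0.65 in selected and -0.78 in EV organoids (1.43 ± 0.25, adjusted p = 0.00568). The 13 calls became 7 without selected line 1 or selected line 3, and 5 with the media unpaired. In base medium 5 of the 22 genes had a lower and 1 a higher level in selected than in EV organoids (median difference of levels -0.12), and in ENSW medium 12 were lower (-0.84), beside 5.22% of all genes.

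Interferon response genes rose in EV organoids and stayed near their ENSW level in selected organoids. Of 23 members tested 20 had a called lower change (median -0.15 in selected, 2.24 in EV), against 4 with the media unpaired. The 20 made up 87.0% of the list, beside 24.2% of all genes called lower. Oasl1, an antiviral synthetase-like protein, had levels of 0.68, 0.30 and 0.49 in selected organoids in base medium and 0.53, 0.12 and -0.11 in ENSW medium. In EV organoids they were 5.50, 3.75 and 5.02 in base medium and 3.15, 1.16 and 1.92 in ENSW medium (difference of changes -2.37 ± 0.24, adjusted p = 0.0015). The viral RNA sensor Ifih1 differed by -1.97 ± 0.18 (adjusted p = 0.00127) and the ubiquitin-like Isg15 by -2.60 ± 0.33 (adjusted p = 0.00238). Of 17 acute phase and antimicrobial genes 8 had a lower and 1 a higher change (52.9%, beside 44.6% of all genes). They were led by Saa1, serum amyloid A (selected change -0.09, difference -4.09 ± 0.31, adjusted p = 0.00115). These 8 lower calls became 4 without EV line 3, 5 with the line as a replicate block and 3 with the media unpaired over 12 arrays.

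Of 19 genes of fat oxidation and ketogenesis 12 had a lower and 2 a higher change (73.7%, beside 44.6% of all genes). Their median was -0.03 in selected and 0.67 in EV organoids. The 12 lower calls became 7 without selected line 1 or EV line 3, and 5 with the media unpaired over 12 arrays. Of 20 glycolysis and hypoxia genes 10 had a lower and 1 a higher change (55%, beside 44.6% of all genes). The glucose transporter gene Slc2a1 changed by -0.12 in selected and 1.91 in EV organoids (-2.03 ± 0.26, adjusted p = 0.00235). Without selected line 3 the 10 lower calls became 2, without EV line 3 they became 3, without selected line 1 or 2 they became 5 and without EV line 1 they became 6. Of 18 fetal-like and YAP target genes 3 had a lower and 1 a higher change (22.2%, against 44.6% of all genes). Ankrd1, a YAP target, was among the lower ones (-1.13 in selected, 0.78 in EV, difference -1.91 ± 0.31, adjusted p = 0.00449).

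Markers of other cell types also moved in EV organoids. Of 15 mesenchymal markers 4 or 5 were well above background on each selected array and 5 or 6 on each EV array. Their summed linear level was 1.16 to 3.24 in selected organoids in base medium and 1.73 to 4.56 in ENSW medium, and 4.50 to 12.4 in EV organoids in base medium and 1.66 to 4.98 in ENSW medium. Of the 6 tested, 4 of them measured in all 4 groups, 3 had a lower change (50%, beside 24.2% of all genes called lower). These were Thy1 (-0.43 in selected, 4.01 in EV), Vim (-0.11 and 2.77) and Fn1. Thy1 was not well above background on any selected array. The Fn1 call was lost without selected line 1 (adjusted p = 0.086), selected line 3 (0.0786), EV line 1 (0.0576) or EV line 3 (0.0762). The collagen gene Col3a1 was well above background on 1 array, that of EV line 3 in base medium. The fibroblast genes Col1a1, Pdgfra, Dcn and Lum were not well above background on any of the 12 arrays. In contrast, Col1a2, Acta2 and Fn1 were well above background on all 12 arrays, and Pdgfrb only on EV arrays. Of 15 blood and endothelial markers 9 were well above background on all 12 arrays, with a summed level of 22.5 to 26.2 in selected organoids in base medium and 22.7 to 29.8 in ENSW medium, and of 43.7 to 66.0 in EV organoids in base medium and 22.7 to 23.4 in ENSW medium. Cd3g, Cdh5 and Tie1 were not well above background on any of the 12 arrays, whereas Ptprc, Cd3e, Pecam1 and Kdr were among the 9. These summed levels were higher in EV organoids in base medium, where the differentiation and interferon genes also rose, and their part in those results was not tested.

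For 715 of the called genes at least 1 group had no array well above background. Clspn, a replication checkpoint adaptor, had levels of -2.79, -4.06 and -3.19 in selected organoids in base medium and -3.54, -3.92 and -3.48 in ENSW medium, and of -3.30, -3.41 and -3.11 in EV organoids in ENSW medium. It was not well above background on the 3 EV arrays in base medium, at least 4.47-fold lower than in ENSW medium (difference of changes adjusted p = 0.000944). The same held for Rpp40, a subunit of ribonuclease P (at least 3.79-fold), and for Ska2, a kinetochore protein (at least 2.81-fold). Nts, the gut peptide neurotensin, showed the converse. It was not well above background on the 6 selected arrays, and its levels in EV organoids were 3.96, -2.24 and 5.08 in base medium and -1.22, -8.12 and -1.52 in ENSW medium, with 2 of 3 ENSW arrays well above background. The chemokine receptor gene Cxcr5 was well above background only on the 3 EV arrays in base medium among the 12, at least 2.61-fold higher than in EV organoids in ENSW medium.

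The levels behind the called differences showed in which medium the organoid types parted. The level differed for 49.7% of genes in base medium (26% higher and 23.7% lower in selected organoids) and for 14.7% in ENSW medium (9.46% higher and 5.22% lower). Of the 4253 genes with a higher change, 84.9% were called higher in selected organoids in base medium and 5.13% in ENSW medium. Of the 5049 genes with a lower change, 67.7% were called lower in base medium and 9.33% in ENSW medium. Level comparisons share arrays with the difference of changes, and in them the slide cannot be told apart from the organoid type. The mitosis list had a median level difference of 4.43 in base medium and -0.37 in ENSW medium, and the ribosome biogenesis list of 2.20 in base and -0.04 in ENSW medium. Interferon genes differed by -3.02 in base and -0.53 in ENSW medium. Colonocyte and goblet genes were apart in both media, with -8.48 in base and -4.55 in ENSW medium for colonocyte genes, and -6.16 in base and -4.87 in ENSW medium for goblet genes. In ENSW medium 13 of 19 colonocyte genes and 11 of 14 goblet genes were already lower in selected organoids, against 0 of 25 replication and 0 of 20 ribosome biogenesis genes.

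**Figure D5:**
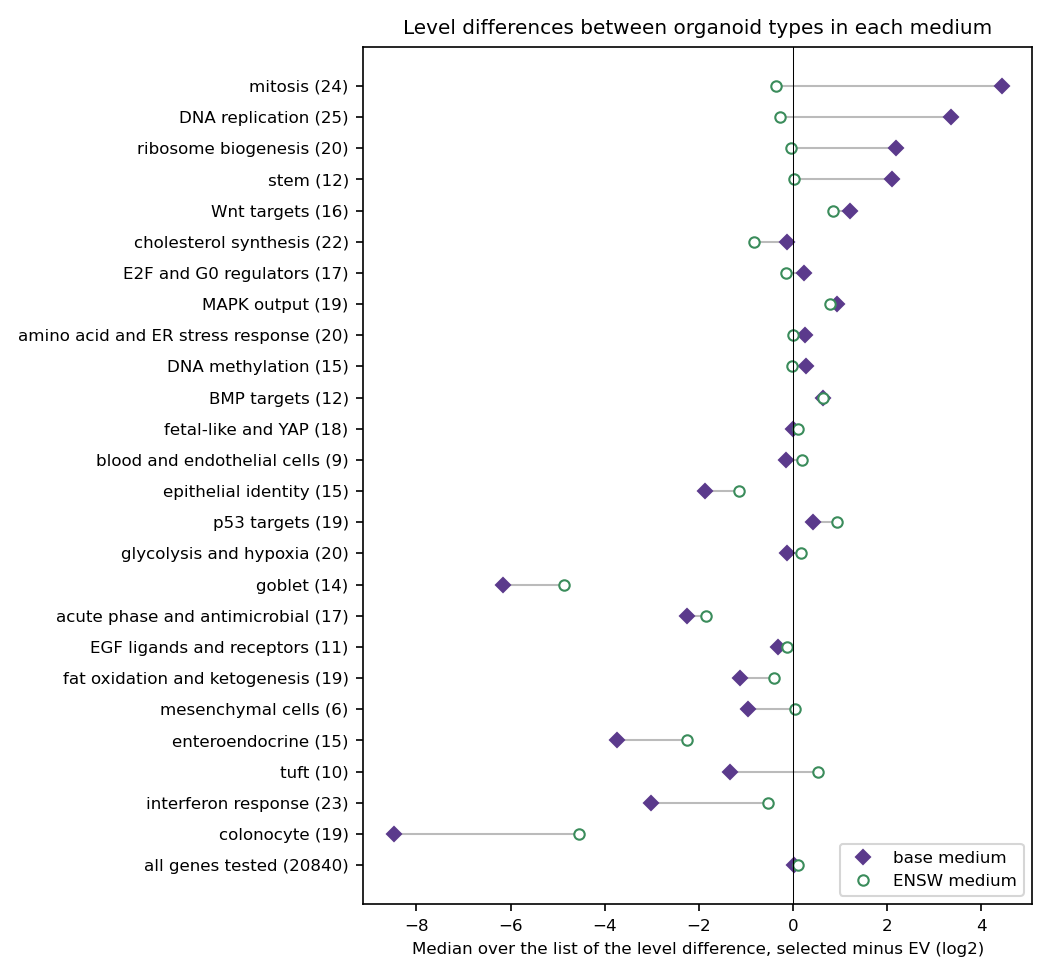
Median over each list of the level difference between selected and EV organoids (log2, horizontal axis) in base medium (filled diamonds) and ENSW medium (open circles). Mitosis, replication and ribosome biogenesis genes lie near 0 in ENSW medium and at 2.20 to 4.43 in base medium, whereas colonocyte and goblet genes lie below -4 in both.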

How the data were processed

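RNA of 20 mouse colon organoid samples was hybridised to 1-colour Agilent arrays, of which 12 enter the comparison. Per the file headers, spot intensity was extracted with Feature Extraction 10.7.3.1, and the processed signal, a background-subtracted intensity on a linear scale, was deposited by the authors. A table of log2 values for these arrays was deposited as well by the authors, and for it the submitters' processing notes name limma. Scale and centring of that table are not stated, its column medians were 5.66 to 5.68, and it correlated with the scanner values at Spearman's rho of 0.979 to 0.989 per array. It served as an alternative.

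Control spots (1377 per array) were left out, which left 43020 spots per array, and of these the outlier spots (2747 over all arrays) were left out. Spots of a probe were averaged, and log2 of the processed signal minus the 75th percentile of the array was taken. A probe was kept if well above background on 3 or more arrays among the 12 and without a missing value, which left 26114 probes. A missing value was found for 34 of all 39429 probes. The brightest kept probe represented a gene. Of 39429 probes, 26581 were named through an accession, 2597 by symbol and 492 by an older symbol, and 9759 kept the name in the files. The change of each of 6 cultures was computed, and selected and EV changes were compared with limma 3.58.1 in R 4.3.3 (4 residual degrees of freedom), with Benjamini-Hochberg adjustment over 20840 genes and a threshold of 0.05. Tables came from Python 3.11.15 (pandas 2.3.3, numpy 2.4.6), figures from matplotlib 3.10.9. The fit was tested on simulated data in which few genes differed and both organoid types had the same spread. That setting differs from these data, so no conclusion is drawn from it. The number of arrays limits the precision.

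Samples were grouped by their labels. The labels give the organoid types the same line numbers, so the lines pair them, and the line as a replicate block was an alternative. Deviations of same-numbered lines from their group means correlated at 0.0895, 0.104 and 0.0625. Other alternatives were the normalization, background correction, filters, probe choice, unpaired media, other samples in the fit, slide as a random block, robust shrinkage and leaving out each culture.

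Genes were named among called genes, measured in all 4 groups and without overlap of cultures, as the 10 largest differences in each direction, the 6 with the largest selected change that exceeded the EV change, up to 3 per list by adjusted p, up to 4 per direction with a group not above background, the genes called alike in both responses, and 19 preset genes. Atf3, Car1, Ccng2, Cdkn1c, Ddit3, Id2, Pyy, Rb1, Rbl2, Slc13a2, Smad6, Smad7, Thy1, the Spry and Spred genes and the genes over 2-fold in all selected cultures fall outside this rule and were chosen after their values were seen. The members and the 25 lists were chosen with earlier results of these data known. The BRAF and wild type cultures were used only in alternatives and in the closing values. Promoters came from the RefSeq table of GRCm38.p6. A few named genes are not reported here, though counts and list medians include them.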

Additional observations from a re-analysis of the deposited data

Results flagged for a closer look

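The change on withdrawal differed between selected and EV organoids for 9302 genes by limma at an adjusted p under 0.05, a test of the difference between the organoid types itself. Of the 99 named genes that were called and measured in all 4 groups, 28 moved in opposite directions in every culture of the organoid types. Among those of the 28 that are described here, 3 did so by over 0.5 log2 units in each culture. C2cd4b and Sardh, which fall outside the naming rule, did so as well. Gpr17, a G protein-coupled receptor, changed by -0.68, -0.96 and -0.51 in selected and by 3.34, 3.52 and 4.29 in EV cultures (difference -4.43 ± 0.28, adjusted p = 0.000951). Ankrd1 changed by -1.04, -1.67 and -0.68 in selected and by 1.22, 0.58 and 0.55 in EV cultures (difference -1.91). Mvd changed by 0.67, 0.68 and 0.74 in selected and by -0.72, -0.70 and -1.50 in EV cultures (difference 1.67).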

How the results depend on the processing

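The count of genes whose change differed was 8550 to 12500 under quantile normalization, normexp, the deposited log2 values, both filters, the signal floor, the mean of probes, the line as a replicate block, the changes of 9 cultures and robust shrinkage. The filters changed the number of genes tested. Without a filter 12500 of 31452 genes were called, and with only genes well above background in all 4 groups 8859 of 17621. It was 5256 (2946 higher, 2310 lower) and 5241 with the media unpaired over 12 and 18 arrays, 15432 with slide as a random block (consensus correlation -0.776), and 6813 to 9663 without 1 culture. Of the called genes 45.7% were higher, against 36.8% with normexp, 33.7% without a filter, and 56.1% and 56.9% with the media unpaired. The median difference of all genes was -0.18, against -0.07 with quantile normalization, -0.20 with normexp and -0.05 in the deposited values. The count for EV organoids was 9041 to 16901 under all alternatives.

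The count of 2 for selected organoids was 8 with the deposited values, 4 with 9 cultures and 1 in both unpaired fits. It was 0 without a filter, with the replicate block, with robust shrinkage, and with each type fitted alone (2578 genes at an unadjusted p under 0.05, an alternative chosen after seeing the data). It was 3151 with slide as a random block and 0 to 2 without 1 culture. The replicate block gave 8550 and 11993 calls for the difference and for EV organoids.

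Of 109 named calls, 96 were kept whichever culture was left out, and the unpaired fits lost 46 and 43. The difference turned for Hk1 with the mean of all probes (-0.15) and for Id3 with a random slide block (-0.23), and the Id3 value lay between -0.31 and 0.47 when 1 culture was left out (below 0 without selected line 3 or EV line 3). The median of the BMP list (-0.14) turned with quantile normalization (0.04), normexp (0.01), the deposited values (0.26) and without selected line 2 (0.04), and was -0.33 without selected line 3. The causes were not tested.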

Other observations

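Cultures outside the comparison were given the same measure, base minus ENSW medium, as values without a test. In the wild type culture 37.9% of genes changed over 2-fold, and across genes its changes correlated at 0.938 with the mean EV change and 0.0612 with the mean selected change. In the 3 BRAF cultures, which carried the activated allele without selection, 8.10%, 17.6% and 13.5% of genes changed over 2-fold. Their changes correlated at 0.313, 0.730 and 0.766 with the mean EV change and at 0.146, 0.180 and 0.230 with the mean selected change.

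Mki67 changed by 0.44, -1.47 and -1.59 in BRAF cultures and -5.39 in the wild type culture. Krt20 changed by 2.87, 7.19 and 5.38 in BRAF cultures and 4.54 in the wild type culture. The Id1 changes were 2.59, 3.18 and 2.95 in BRAF cultures and 3.09 in the wild type culture, so they were positive in every culture of the series. Cdkn1a changed by 0.39, 0.81 and 0.44 in BRAF cultures and 3.16 in the wild type culture. Etv4 changed by -1.73, -2.20 and -1.48 in BRAF cultures and -1.68 in the wild type culture. The median change of the cholesterol synthesis list was 0.76, 0.57 and 0.50 in BRAF cultures and 0.23 in the wild type culture.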
